A study of Mus musculus with 8 samples.

Results

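The summits described here were the ATAC-seq summits of mouse brown adipose tissue (BAT) that lay at most 100 bp, on either side, from the nearest transcription start site (TSS) of a RefSeq NM transcript, which is a curated mRNA. Summits between a pair of divergent TSSs of different genes at most 1 kb apart were left out, and only chromosomes 1 to 19 were used. By this rule 3286 of the 32173 summits in the deposited list were core promoter summits, or 10.4% of the 31729 on chromosomes 1 to 19. Of 3611 summits within 100 bp of a TSS, 273 were left out as divergent and 52 as lying on X or Y. The 3286 summits belonged to 3260 genes, since 26 genes had 2.

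The list came from BAT of 2 WT and 2 Dot1l-BKO mice, all 12 weeks old, on chow and kept for 4 hours at 4°C. WT mice were Dot1l f/f controls with the floxed allele Dot1ltm1a(KOMP)Wtsi, bred first to FLPe mice. Dot1l-BKO mice carried floxed Dot1l with Ucp1-Cre from the line B6.FVB-Tg(Ucp1-cre)1Evdr/J, which drives the deletion in Ucp1+ cells, so that the other cells of the tissue kept Dot1l. Each summit had 1 score, the −log10 of the q-value of its peak, and no value per library, so that no comparison between WT and Dot1l-BKO, no replicate error and no test were possible. The list is named for WT against Dot1l-BKO, and it is not known whether peaks were called with Dot1l-BKO as control, so that a score is not simply a level of accessibility.

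The core promoter is the stretch of DNA around the TSS on which RNA polymerase II and the general transcription factors assemble. At active genes it is usually kept free of nucleosomes, which lets the Tn5 transposase of ATAC-seq insert its adapters there. In mammals most such promoters are rich in CpG dinucleotides and lack a TATA box, and many hold short binding motifs of broadly expressed factors such as SP, ETS, NFY, NRF1 and YY1. In BAT, promoters of thermogenic, lipid and mitochondrial genes serve the heat production that Ucp1, the uncoupling protein of the inner mitochondrial membrane, makes possible.

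The sequences that follow are the 120 bases just upstream of the TSS, 5′ to 3′ on the strand of the gene, from RefSeq GRCm38.p6 (mm10). Capitals mark exact matches to the GC box, ETS, CCAAT, NRF1, YY1, CRE, TATA box, AP-1, ERR, ZNF143 and C/EBP motifs, while E-box, EBF, NFI, RFX, HIF and MEF2 motifs were left in lower case, and the last base is position -1. The first set holds genes of BAT function whose core promoter summit is described in the text, and the leading gene of all core promoter summits, Acadm.

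Acadm (chr3:153944644-153944763, minus strand): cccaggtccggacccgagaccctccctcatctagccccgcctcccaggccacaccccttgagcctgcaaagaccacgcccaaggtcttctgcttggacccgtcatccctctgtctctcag
Ucp1 (chr8:83290228-83290347, plus strand): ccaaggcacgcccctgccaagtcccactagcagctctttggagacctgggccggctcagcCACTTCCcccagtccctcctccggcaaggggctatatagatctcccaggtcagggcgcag
Cox7a1 (chr7:30184051-30184170, plus strand): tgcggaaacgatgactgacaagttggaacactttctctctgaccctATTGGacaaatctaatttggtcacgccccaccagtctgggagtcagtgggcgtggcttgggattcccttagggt
Ppargc1a (chr5:51553922-51554041, minus strand): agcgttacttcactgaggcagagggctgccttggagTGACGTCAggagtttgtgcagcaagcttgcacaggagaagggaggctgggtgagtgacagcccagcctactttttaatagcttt
Elovl3 (chr19:46131779-46131898, plus strand): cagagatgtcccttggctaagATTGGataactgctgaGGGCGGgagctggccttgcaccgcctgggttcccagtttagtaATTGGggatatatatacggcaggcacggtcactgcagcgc
Dio2 (chr12:90739039-90739158, minus strand): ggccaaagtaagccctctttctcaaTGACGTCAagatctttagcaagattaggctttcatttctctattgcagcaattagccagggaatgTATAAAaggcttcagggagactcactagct
Timm13 (chr10:80900970-80901089, minus strand): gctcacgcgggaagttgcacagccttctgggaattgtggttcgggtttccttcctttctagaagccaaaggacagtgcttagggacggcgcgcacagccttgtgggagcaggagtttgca
Zc3h10 (chr10:128547747-128547866, minus strand): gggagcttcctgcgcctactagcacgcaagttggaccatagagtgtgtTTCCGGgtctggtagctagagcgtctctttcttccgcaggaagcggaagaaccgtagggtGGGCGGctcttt

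These promoters did not share 1 motif. Ppargc1a, the coactivator of mitochondrial biogenesis, held the cAMP response element (CRE) TGACGTCA with its first base at -84, and Dio2, the deiodinase that activates thyroid hormone, held it at -95 and a TATA box at -30. Cox7a1, a cytochrome c oxidase subunit of heart, muscle and BAT, held a CCAAT box on the antisense strand at -74, and Elovl3, a cold-induced fatty acid elongase, held antisense CCAAT boxes at -99 and -40 with a GC box at -83. Ucp1 held the antisense letters of the GABP-type ETS motif at -60. Zc3h10, a BAT-enriched zinc finger protein, held an antisense ETS motif at -72 and a GC box at -12. None of the motifs in capitals was found in these bases of Acadm or Timm13.

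The second set shows, for motifs described further on, high-scoring core promoters with a match where that motif was most frequent.

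Dnpep (chr1:75317638-75317757, minus strand): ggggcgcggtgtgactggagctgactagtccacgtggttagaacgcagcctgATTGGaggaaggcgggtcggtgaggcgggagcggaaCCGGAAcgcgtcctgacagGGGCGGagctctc
Traf7 (chr17:24527939-24528058, minus strand): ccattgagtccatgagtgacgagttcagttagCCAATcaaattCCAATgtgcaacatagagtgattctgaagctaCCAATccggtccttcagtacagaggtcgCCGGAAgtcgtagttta
Tubb4b (chr2:25224703-25224822, minus strand): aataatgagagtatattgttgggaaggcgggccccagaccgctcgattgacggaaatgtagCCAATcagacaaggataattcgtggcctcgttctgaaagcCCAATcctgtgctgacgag
Snrnp70 (chr7:45395743-45395862, minus strand): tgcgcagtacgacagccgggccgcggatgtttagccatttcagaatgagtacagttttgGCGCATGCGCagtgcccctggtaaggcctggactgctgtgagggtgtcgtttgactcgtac
H3f3b (chr11:116024505-116024624, minus strand): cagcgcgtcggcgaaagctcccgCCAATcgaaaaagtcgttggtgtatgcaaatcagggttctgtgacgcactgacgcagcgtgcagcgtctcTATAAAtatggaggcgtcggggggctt
Amn1 (chr6:149188713-149188832, minus strand): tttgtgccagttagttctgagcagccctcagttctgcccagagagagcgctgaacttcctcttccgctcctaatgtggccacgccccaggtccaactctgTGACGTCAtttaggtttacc

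Dnpep, an aspartyl aminopeptidase with the second-highest score, held a GC box at -13. Traf7, a RING-domain ubiquitin ligase, held an ETS motif at -17 and CCAAT boxes at -88, -77 and -45, and Tubb4b, a β-tubulin, held CCAAT boxes at -59 and -19. Snrnp70, a U1 small nuclear ribonucleoprotein, held overlapping NRF1 motifs on both strands at -61 and -59, H3f3b, a gene for histone H3.3, held a TATA box at -27, and Amn1 a CRE at -20.

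Summits were denser in the 200 bp around the TSS than on average over the rest of the 1 kb on either side. The density fell off gradually, and the 50 bp from -150 bp on, outside the window, held 732 summits. That was more than the 568 in the 50 bp from 50 bp downstream on. The window held 16.3 summits per bp, beside 3.42 per bp farther upstream, up to 1 kb, and 3.89 per bp farther downstream, up to 1 kb, all summed over TSSs. Upstream of the TSS lay 1792 of the 3286 summits, or 54.5% (95% Wilson interval 52.8 to 56.2, counting error only). Another 1474 lay downstream and 20 on the TSS base, with a median of -11 bp and quartiles of -58 and 34 bp. The excess upstream depended on the window, since within 50 bp of the TSS 47.4% lay upstream, and with all RefSeq transcripts in place of NM alone 50.3%. The split was nearly the same for genes on the plus strand (54.0% upstream) and on the minus strand (55.1%).

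**Figure D1:**
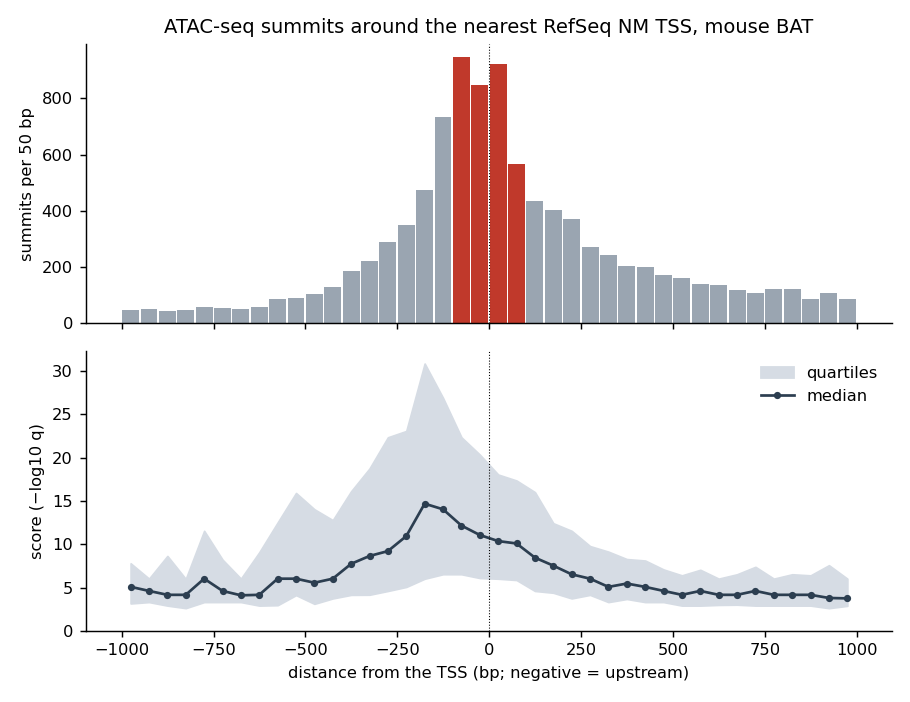
Number of summits (top, per 50 bp) and score (bottom, −log10 q, median and quartiles) against distance from the nearest NM TSS, with summits between divergent TSSs left out and bins inside the 100-bp window in red. Counts were highest from 100 to 51 bp upstream (946) and from the TSS to 49 bp downstream (923), while the median score was highest farther upstream, at 14.7 from -200 bp on.

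The score did not follow the count. Across the window the median fell from 13.0 in the 20 bp farthest upstream to 8.65 in the 20 bp farthest downstream, and it was 11.5 for upstream and 10.4 for downstream summits. Outside the window it was still higher on the upstream side, at 14.0 in the 50 bp next to it, and lower on the downstream side, at 8.45 in the 50 bp from 100 bp on. At the edges of the rule, the 180 summits in the last 10 bp inside the upstream edge had a median of 12.2 and the 153 in the first 10 bp outside it had 14.0. At the downstream edge the 87 inside had 7.58 and the 104 outside had 7.99. The edges thus cut through a continuous slope and not through a gap.

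Core promoter summits had a median score of 10.9 with quartiles of 6.02 and 19.4. A score of at least 10 was reached by 1801 of them, or 54.8%, where the share over all summits on chromosomes 1 to 19 was 23.6%. Summits of bidirectional promoters, between divergent TSSs, scored higher, with a median of 22.9 and 80.6% at 10 or more. Summits farther upstream, up to 1 kb, had a median of 9.21, those farther downstream 5.55, those from 1 to 5 kb 4.04 and those beyond 5 kb 4.16. Scores came in steps, since the 3286 summits had 505 distinct values and 3009 of them shared theirs with another member. The most frequent value, 6.02, was held by 133.

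**Figure D2:**
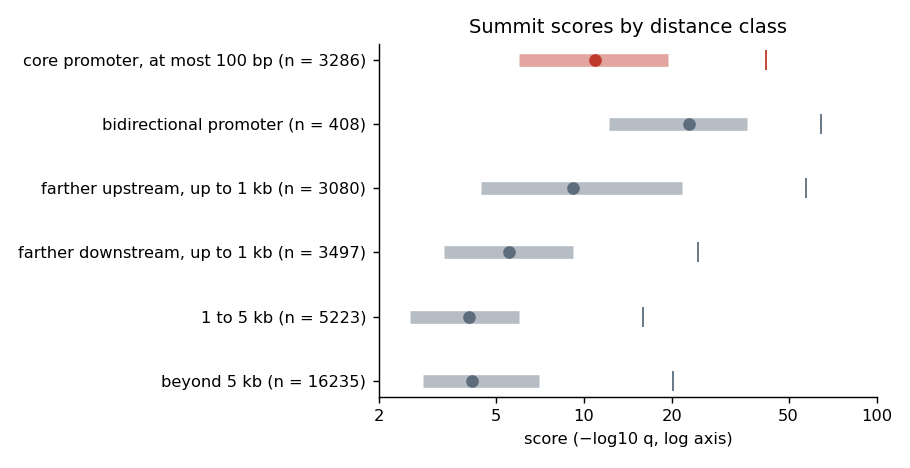
Score (−log10 q, log axis) of summits by distance class, with the median as a dot, the quartiles as a bar and the 95th percentile as a tick. Core promoter summits (median 10.9) lay between bidirectional promoters (22.9) and summits farther upstream, up to 1 kb (9.21), and classes downstream or farther away lay lower.

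Downstream of the TSS, 1352 summits, with those on the TSS base, lay in the 5′ UTR of the transcript that starts there, 104 in its coding sequence and 38 in an intron. Their median scores were 10.6, 8.65 and 6.79, in the order of their median distance from the TSS (35, 63.5 and 76.5 bp). Most core promoter summits stood alone. Another summit lay within 1 kb of 408 of them (12.4%), more often on the downstream side (279) than on the upstream side (155), with 26 counted on both. Those with such a neighbour had a median score of 8.65 and those without 11.1. The nearest pair lay 252 bp apart and the median distance to the next summit was 12455 bp.

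Of 811 core promoter summits at genes with more than 1 NM TSS, 463 (57.1%) lay at the most upstream TSS. The 26 genes with 2 core promoter summits had each at a different TSS. This follows from the spacing, since the nearest pair of summits lay 252 bp apart and the window around 1 TSS spans 200 bp. The members of a pair often differed in score. At Gatad2a, a subunit of the NuRD complex, the summits 22053 bp apart scored 14.0 and 84.1. At Ube2d3, a ubiquitin-conjugating enzyme, summits 934 bp apart scored 61.5 and 8.65, and at Cav1, the caveolin of fat cell caveolae, summits 1238 bp apart scored 6.53 and 19.4. At Ak1, an adenylate kinase, both were low, at 7.58 and 6.53.

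The sequence under these summits was rich in G+C and CpG. Within 100 bp of the summit the median G+C was 64.2%, and 2737 windows (83.3%) were like CpG islands, with G+C of at least 50% and observed over expected CpG of at least 0.6. The share was 57.1% farther upstream, up to 1 kb, 59.1% farther downstream and 9.66% beyond 5 kb, while bidirectional promoters, at 82.4%, were close to core promoters. CpG-island-like core promoter summits had a median score of 11.5 and the other 549 had 8.44. Soft-masked repeats held 1.98% of core promoter summits and 12.2% of all summits. Seen from the TSSs, 21.5% of 12984 CpG-island-like NM TSSs had a core promoter summit and 4.17% of the 11876 others.

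Since G+C was read in a window centred on the summit and was higher downstream of these TSSs than upstream, summits on the downstream side had windows richer in G+C by construction. In the quintile of core promoter summits lowest in G+C, 63.2% lay upstream, and the share fell through 58.4%, 54.0% and 51.1% to 44.8% in the highest quintile. The median score was highest in the middle quintile, at 13.0, and 10.4 in both outer ones. Around the TSSs with a core promoter summit G+C rose from 51.2% in the 20 bp from -300 bp on to 66.7% in the last 20 bp before the TSS and stayed above 64% to 300 bp downstream. From the TSS on, G outnumbered C on the sense strand by 6.62 percentage points in the first 20 bp, and farther than 60 bp upstream C was slightly in excess.

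**Figure D3:**
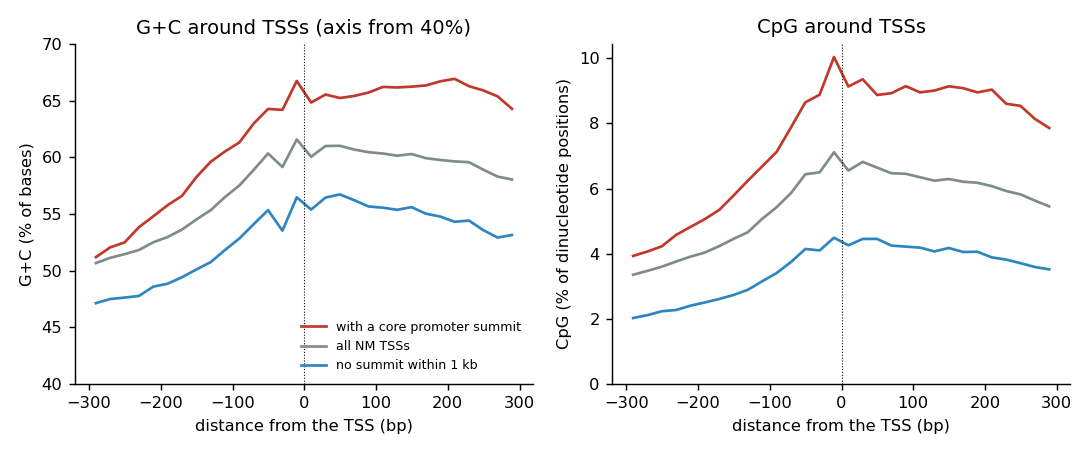
G+C (left, axis from 40%) and CpG dinucleotides (right) in 20-bp steps around NM TSSs with a core promoter summit (n = 3286), all NM TSSs (n = 24860) and TSSs with no summit within 1 kb (n = 13700). At 20 to 1 bp upstream G+C was 66.7%, 61.6% and 56.5%, and the lines for TSSs with a core promoter summit lay highest at every step.

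The gene models differed little in the length of the first exon, with a median of 200 bp at TSSs with a core promoter summit, 207 bp over all NM TSSs and 210 bp at TSSs with no summit within 1 kb. Genes of a single exon made up 2.01%, 8.18% and 13.1% of these sets. A pyrimidine followed by a purine across the TSS, the simplest form of the initiator, was found at 57.9%, 54.6% and 53.0%. The CA form of it went the other way, at 19.4%, 22.1% and 24.99%.

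Motifs were searched as exact letters on both strands, within 100 bp of the summit and, for a background, within 100 bp of all NM TSSs. The GC box, bound by the SP and KLF families, was searched as GGGCGG. The ETS family, which includes GABP, a regulator of nuclear genes for mitochondria, was searched as CCGGAA, and in a GABP-type form as GGAAGTG, whose letters can overlap those of the first form. The trimeric factor NFY was searched by its box CCAAT. NRF1, another regulator of nuclear genes for mitochondria, was searched as GCATGCGC. YY1, a zinc finger protein that also loops promoters to enhancers, was searched as AAGATGG. The cAMP response element of the CREB and ATF factors was searched as TGACGTCA and in a short form as TGACGT, which the full CRE contains. The E-box of basic helix-loop-helix factors was searched as CACGTG, the ZNF143 motif as ACTACAA and the TATA box, which the TATA-binding protein of the general machinery contacts, as TATAAA. Among factors of particular tissues or signals, AP-1, the dimers of Fos and Jun proteins, was searched as TGANTCA. Estrogen-related receptors (ERR), which act on genes of oxidative metabolism, were searched as AAGGTCA. Early B-cell factors (EBF), of which Ebf2 acts in brown fat, were searched as CCCNNGGGA. NFI was searched as TTGGCA, which can overlap an antisense CCAAT box. The C/EBP factors of adipocytes were searched as TTGCGCAA. RFX, whose factors act on genes of cilia, was searched as GTTGCC, the hypoxia-inducible factors (HIF) as TACGTG, and MEF2, a family known from muscle, as CTANNNNTA, which can overlap a TATA box. A match is a string of letters and not a bound site.

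The GC box was the most frequent, in 57.8% of core promoter summits (1900), followed by CCAAT in 34.7% (1141), ETS in 30.2% (991), GABP-type ETS in 14.1% and the short CRE in 12.6%. The E-box was in 8.43%, YY1 in 5.93%, NRF1 in 5.33%, CRE in 3.86%, ZNF143 in 3.68% and the TATA box in 3.07%. Around their TSSs the shares were 60.04% for the GC box, 31.3% for ETS, 35.1% for CCAAT, 5.48% for NRF1 and 6.94% for YY1, where all NM TSSs had 43.5%, 15.3%, 27.0%, 2.67% and 4.95%. The TATA box went the other way, with 2.92% at TSSs with a core promoter summit, 7.35% at all and 10.9% at those with no summit within 1 kb.

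These differences changed with CpG content, and none was tested. Among CpG-island-like TSSs alone, the GC box was found in 64.2% of the 2791 with a core promoter summit and in 66.6% of the 3863 with no summit within 1 kb. The TATA box (2.72% and 3.21%), AP-1 (2.08% and 1.81%), NFI (5.98% and 4.996%) and C/EBP (0.215% and 0.207%) also lay close together there, and EBF was lower with a core promoter summit (5.41% and 7.51%). ETS was found in 34.3% and 14.0%, GABP-type ETS in 15.3% and 6.08%, CCAAT in 34.5% and 20.4%, the short CRE in 13.8% and 6.70%, YY1 in 7.56% and 3.18%, NRF1 in 6.20% and 3.003%, and ZNF143 in 3.80% and 0.932%. Among the TSSs that were not CpG-island-like, the GC box was found in 36.6% with a core promoter summit and 12.4% without a summit, ETS in 14.3% and 4.36%, YY1 in 3.43% and 4.10%, and the TATA box in 4.04% and 14.0%.

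Of the motifs of tissue and signal factors, 5 were scarcer at core promoter summits than at summits beyond 5 kb from a TSS and 5 were not, with both forms of the CRE counted. AP-1 was in 2.95% and 7.96%, ERR, the site of estrogen-related receptors, in 1.95% and 6.07%, EBF in 5.93% and 12.1%, and NFI in 7.06% and 13.1%. MEF2 was in 7.40% and 10.1%. C/EBP was in 0.183% and 0.117%, or 6 core promoter summits. HIF was in 3.13% and 1.93%, and RFX in 9.31% and 7.27%. The CRE was in 3.86% and 0.548%, and its short form in 12.6% and 3.85%. These classes also differed in CpG content, with 83.3% and 9.66% of windows CpG-island-like, and the CRE, HIF and C/EBP letters contain CG. Among CpG-island-like TSSs alone, ERR was in 1.47% with a core promoter summit and 0.854% with no summit within 1 kb. MEF2 was in 6.31% and 4.09% there, while EBF went the other way, at 5.41% and 7.51%. How far the differences go with CpG content was not tested. Iffo1, with a score of 22.4, held an antisense ERR motif near -83, and Tlcd1, with a score of 34.2, an AP-1 motif near 61.

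**Figure D4:**
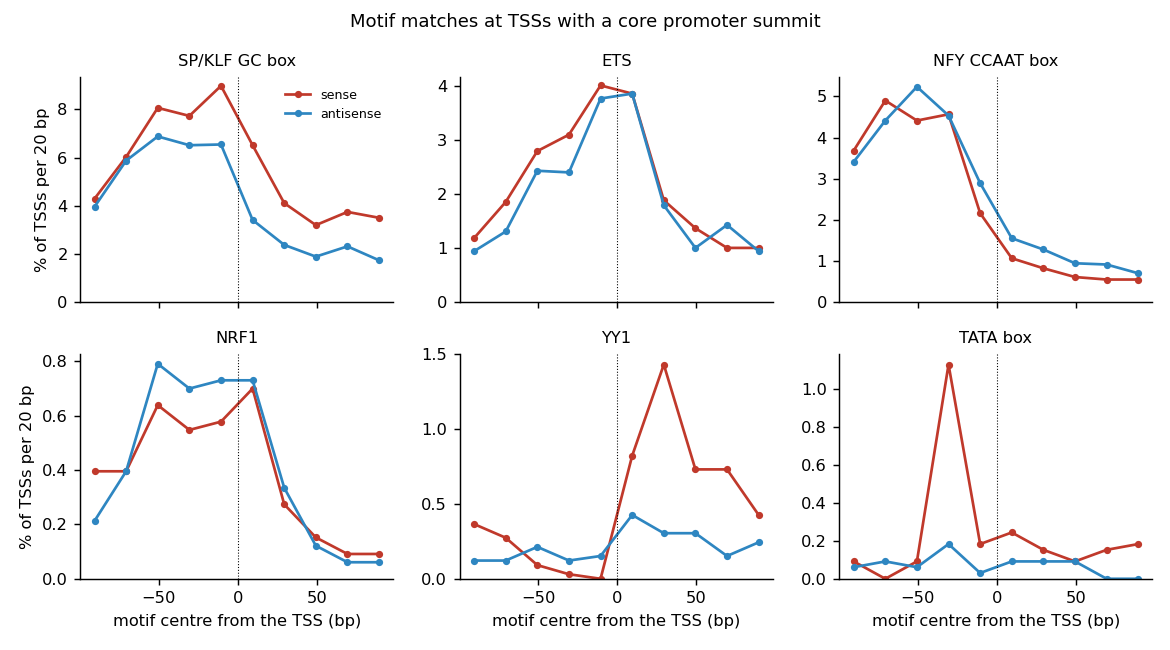
Share of the 3286 TSSs with a core promoter summit that held a motif in each 20-bp step around the TSS, on the sense strand (red) and antisense strand (blue). CCAAT lay upstream, ETS peaked around the TSS, YY1 on the sense strand downstream of it and the TATA box on the sense strand from 40 to 21 bp upstream.

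Motifs differed in where along the promoter they were fullest, and some shared a step. Of CCAAT matches around these TSSs 81.7% lay upstream, and its fullest step, from 60 to 41 bp upstream, held it at 312 TSSs, with Tubb4b (score 75.6) and Glrx5 (71.5), a mitochondrial glutaredoxin of iron-sulfur cluster assembly, leading. Of 140 ZNF143 matches 112 lay upstream. ETS was fullest in the 20 bp before the TSS, with 250 TSSs led by Eny2 (79.8), a subunit of the SAGA and TREX-2 complexes, and Traf7 (71.5). The GC box was fullest in the same step, with 503 TSSs led by Dnpep (119.1) and Aco1 (90.8), the cytosolic aconitase and iron regulatory protein.

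A few motifs also favoured a strand. YY1 lay downstream in all but 21.03% of its matches and on the sense strand in 69.5%. Its fullest step, from 20 to 39 bp downstream, held 47 sense and 10 antisense TSSs, and Tmem218 (65.4) and Kansl2 (56.6), a subunit of the NSL complex, led it. The TATA box lay on the sense strand in 76.8%, and 37 TSSs had it in sense from 40 to 21 bp upstream, the step that also held Ing1 (45.4, antisense) and H3f3b (44.6). CCAAT (47.3% sense), NRF1 (48.1%) and ETS (52.7%) showed almost no strand preference, and the GC box had 57.5% on the sense strand.

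CCAAT was the motif with the largest gap in score among those in at least 100 summits. Core promoter summits with it had a median score of 14.0 and those without 10.1, and 63.7% and 50.1% reached a score of 10. The difference ran the same way in each of the 5 G+C quintiles, with 16.7 and 10.9 in the middle one and 10.9 and 9.78 in the highest. It also held on both sides, with 14.0 and 10.4 for upstream summits and 13.1 and 9.78 for downstream ones. CCAAT matches lay nearer to the summit, at a median of 38 bp, than GC boxes at 49.5 bp, where matches spread evenly over the window would lie near 50 bp. The GC box went with a smaller difference, 11.2 and 10.4, in the same direction in each of the 5 quintiles. NRF1 and YY1 had the same median, 10.9, with and without a match, but not on each side. For NRF1 the medians were 10.2 with and 12.2 without upstream, and 12.1 and 10.4 downstream. For YY1 they were 12.2 and 11.5 upstream, and 9.34 and 10.4 downstream. No error can be given for these medians beyond the number of summits, and they were not tested.

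Several motifs in 1 window went with higher scores. Counting the GC box, ETS, NRF1, CCAAT, YY1, short CRE and TATA box, 443 core promoter summits held none and had a median score of 8.12. With 1 it was 10.4 (1272 summits), with 2 it was 12.2 (1133), with 3 it was 13.4 (378), with 4 it was 14.1 (56) and with 5 it was 13.5 in 4 summits. The 10 highest scores did not follow this. Of these 7 motifs, Acadm, with the highest score, held only NRF1 within 100 bp, and Ripk2, with the third highest, held none. Gsk3b held only CCAAT, Atp5j only ETS, and Aco1, Anxa5 and Odr4 only the GC box. Dnpep, Bcl10 and Sf1 held more than 1.

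The 10 highest core promoter summits came from genes of different kinds. Acadm, the medium-chain acyl-CoA dehydrogenase of fatty acid oxidation, led with 121.2 at -63 bp. It was followed by Dnpep (119.1, 31 bp), Ripk2 (109.5, -88 bp), a kinase of innate immune signalling, Gsk3b (107.3, 94 bp), glycogen synthase kinase 3β, and Bcl10 (99.4, -80 bp), an adaptor of NF-κB signalling. Atp5j (98.3, 68 bp), an ATP synthase subunit, Sf1 (96.0, -24 bp), a splicing factor, Aco1 (90.8, -29 bp), Anxa5 (90.5, 47 bp), an annexin, and Odr4 (84.1, -19 bp) completed them, with the higher summit of Gatad2a tied with Odr4. Acadm, Aco1 and Anxa5 were not CpG-island-like under the summit, with CpG observed over expected of 0.437, 0.503 and 0.558. In the whole list Acadm ranked 30th, so that the highest scores lay elsewhere.

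Of 20021 genes with an NM TSS, 16.3% had a core promoter summit. The gene lists were compared with this share and were not tested. Thermogenic genes had one at 10 of 21 (47.6%), with a median score of 19.5 beside 10.9 over all 3260 genes. Cidea, a lipid droplet protein of brown adipocytes, had the highest score, 61.5, at 65 bp. Letmd1, a mitochondrial protein needed for heat production, had 35.3 at -93 bp, Ucp1 33.7 at -26 bp and Aifm2, an NADH oxidoreductase of the lipid droplet, 30.1 at 46 bp. Ppargc1a had 20.8 at -51 bp, the elongase Elovl6 18.3 at -34 bp and Cox7a1 15.4 at -44 bp. Elovl3 (9.78 at 17 bp), Zc3h10 (8.65 at -85 bp) and Dio2 (6.02 at 3 bp) were lower. Of the other 11, 6 had their nearest summit farther upstream, up to 1 kb, 3 farther downstream and 2 beyond 1 kb.

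The nearest summits of these 11 genes scored from 3.32 to 67.7 with a median of 8.65, and 7 of them scored below 10. Otop1, a proton channel, was highest with 67.7 at 926 bp. Esrra, the estrogen-related receptor α, had its nearest summit at -225 bp with 59.5, Pank1, a pantothenate kinase, at -160 bp with 41.8, Ebf2 at -109 bp with 12.5 and Prdm16 at -178 bp with 8.65, both transcription regulators of brown fat identity. Ppargc1b, a relative of Ppargc1a, had 9.21 at -172 bp, Kcnk3, a potassium channel, 7.12 at 659 bp, Cox8b, a cytochrome c oxidase subunit, 6.02 at 123 bp and Zfp516, a transcription factor, 3.58 at -239 bp. Adrb3, the β3-adrenergic receptor, had its nearest at 1479 bp with 3.35, and Esrrg, the estrogen-related receptor γ, at 10193 bp with 3.32.

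General adipocyte genes had a core promoter summit at 10 of 24 (41.7%) with a median score of 23.1. Dgat1, which makes triglyceride, had 65.4 at -2 bp, Cebpa, a transcription factor of adipogenesis, 39.6 at -89 bp, Plin2, a lipid droplet coat protein, 36.7 at 72 bp and Fabp4, the fatty acid carrier of adipocytes, 35.0 at -4 bp. Plin1 (23.1 at -4 bp), Lpl (23.1 at -66 bp) and Pparg (19.1 at -84 bp), the nuclear receptor that drives fat cell differentiation, followed. Cd36, a fatty acid transporter, was lowest at 4.16. Adipoq, the adiponectin gene, lay just outside, at -102 bp with 6.02, and Plin5 also at -102 bp with 29.3, while Lipe, the hormone-sensitive lipase, had 84.8 at -171 bp.

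Genes of fatty acid oxidation and the citrate cycle had a core promoter summit at 10 of 24, with a median score of 33.6, the highest of the lists. After Acadm came Fh1, fumarate hydratase (52.8 at 52 bp), Ogdh, of the oxoglutarate dehydrogenase complex (51.9 at 66 bp), and Acaa2, a thiolase (46.4 at -15 bp). Etfa, Cpt2 and Etfb, of electron transfer and carnitine-dependent import, had 34.2, 33.0 and 29.3, and Dlst was lowest at 4.61.

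Subunits of oxidative phosphorylation had one at 36 of 82 genes (43.9%) with a median score of 13.7. By complex these were 15 of 37 for NADH dehydrogenase, 2 of 4 for succinate dehydrogenase, 3 of 9 for cytochrome c reductase, 8 of 15 for cytochrome c oxidase and 8 of 17 for ATP synthase. Atp5j led with 98.3 and was followed by Ndufv1 (37.9), Ndufs8 (37.6) and Atp5d (36.7). The median position of the 36 was 1 bp from the TSS, and the lowest score was 6.02, so that Atp5j stood far above the others.

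Mitochondrial ribosomal proteins had a core promoter summit at 25 of 78 genes (32.1%), 9 of 29 in the small and 16 of 49 in the large subunit, led by Mrps14 (57.6) and Mrps16 (41.01), with Mrpl44 (19.4) and Mrpl12 (18.8) next. Import translocases had one at 11 of 23 (47.8%). Timm13, a chaperone of the intermembrane space, had 68.5 at 5 bp, and Timm22 (23.1), Tomm34 (20.9) and Timm8b (20.2) followed. Of the 15 genes for the expression of mitochondrial DNA only Polrmt, the mitochondrial RNA polymerase, had one (9.76 at 90 bp), while 13 of the 15 had a summit within 1 kb of a TSS, where the share of all genes was 46.8%. The list was at 6.67%, below all genes, with the 100-bp window, but at 40% (6 of 15) within 200 bp, above the 26.1% of all genes. Gabpa, a subunit of GABP, had the highest nearest summit of the 15 genes, 98.3 at -216 bp, which is the summit that lay 68 bp from the TSS of Atp5j. Polg, the DNA polymerase, had its nearest at -163 bp with 38.3, Tfb1m at -105 bp with 30.5 and Tfam, the packaging factor, at 198 bp with 7.05.

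**Figure D5:**
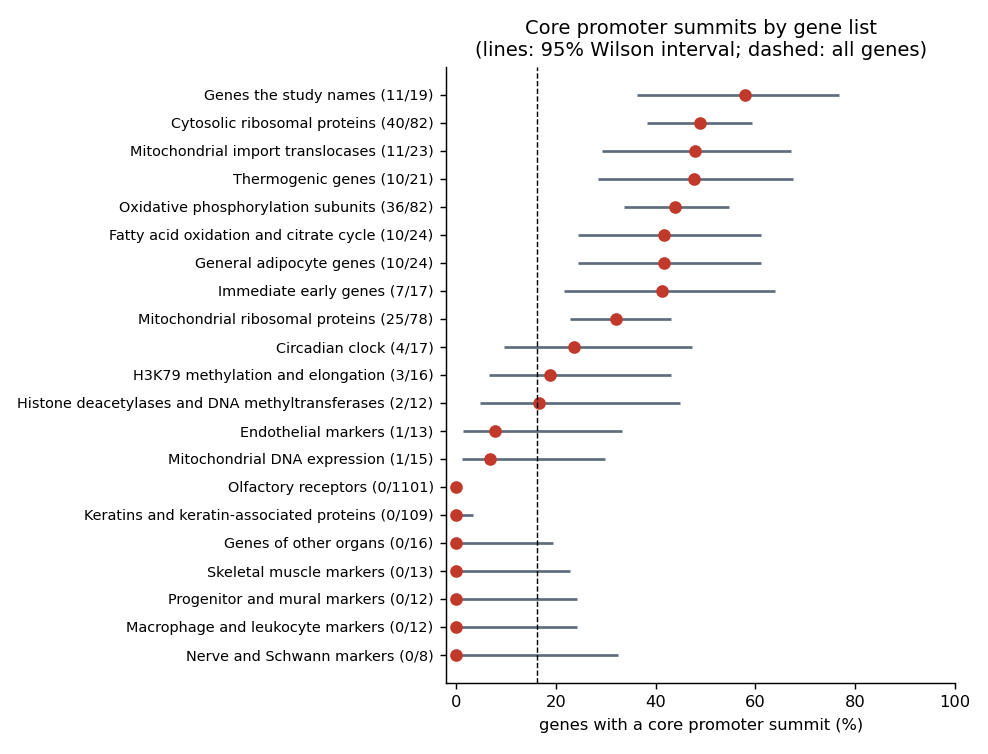
Share of genes with a core promoter summit in each of 21 lists (dots, with 95% Wilson intervals for counting error), beside the share over all genes with an NM TSS (dashed line, 16.3%). Thermogenic, adipocyte and mitochondrial lists other than mitochondrial DNA expression lay above the line (within 200 bp that list too, at 40% beside 26.1%). Marker lists of other cell types lay below the line, but their intervals reached it.

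Cytosolic ribosomal proteins, the general housekeeping set, had a core promoter summit at 40 of 82 genes (48.8%), with a median score of 13.6, and so at a share near that of thermogenic genes. Rps2 (40.5), Rpl37 (35.3) and Rpl27 (33.3) were among the highest, and 24 of the 40 lay upstream of the TSS.

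Immediate early genes had one at 7 of 17 (41.2%). Jun scored 67.4 at -2 bp, Junb 32.5 at -70 bp, Nr4a2 15.4 at -4 bp and Fos 13.3 at -8 bp, all transcription factors induced by signals, while Atf3 had its nearest at -118 bp with 50.97 and Egr1 at -855 bp with 50.97. Clock genes had one at 4 of 17 (23.5%). Nr1d2, a repressor of the clock, had 65.8 at -76 bp, Cry1 23.8 at -98 bp, Clock 10.4 at -84 bp and Npas2 3.32 at 70 bp.

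Genes of H3K79 methylation and transcription elongation had a core promoter summit at 3 of 16 (18.8%), beside 16.3% of all genes. The list's place depended on the window, since within 200 bp it was 10 of 16 (62.5%) beside 26.1% of all genes, and with a score of at least 10 it was 0 of 16 beside 8.97%. The 3 were Zc3h10, Supt4a (7.05 at -67 bp) and Aff4 (5.55 at 4 bp), the latter 2 from elongation complexes. Dot1l, the H3K79 methyltransferase deleted in Dot1l-BKO mice, had its nearest summit at -160 bp with 10.9. The deleted exons were not checked, since summits mark open sites and not exons. Ell and Ell2, elongation factors, had their nearest at -307 bp with 92.7 and at -131 bp with 73.8. Histone deacetylases and DNA methyltransferases had one at 2 of 12, Hdac5 (9.78) and Dnmt1 (7.05), with 41.7% within 200 bp and 0 of 12 with a score of at least 10, while Hdac4 had 61.5 at -158 bp and Hdac3 8.12 at 195 bp. Other genes taken from the study's text that lay outside the window were Cox8b (123 bp, 6.02), Cox20 (262 bp, 4.16), Immp2l (227 bp, 6.02) and Nrf1 (34131 bp, 10.1). Of 19 genes selected from those in the study's text, 11 had a core promoter summit, and that selection, drawn from the study of these mice, is no independent evidence.

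BAT as dissected also holds endothelial cells, macrophages, progenitors, mural cells and nerves. Of 13 endothelial markers only Cldn5, a tight junction protein, had a core promoter summit, with 5.9998, and 6 (46.2%) had a summit within 1 kb, near the 46.8% of all genes. None of 12 macrophage and leukocyte markers, 12 progenitor and mural markers, 8 nerve and Schwann markers, 13 skeletal muscle markers or 16 genes of other organs had one. Neither did any of 1101 olfactory receptors or of 109 keratins and keratin-associated proteins. In a bulk tissue, fewer cells of a type and less accessibility per cell cannot be told apart. If Dot1l-BKO served as the control in peak calling, which is not known, a gene without a summit may also be one at which WT and Dot1l-BKO did not differ.

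The share of genes with a core promoter summit ran from 12.3% on chromosome 7 to 19.8% on chromosome 8. The median score ran from 8.43 on chromosome 14 to 14.0 on chromosomes 1 and 18.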

How the data were processed

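The ATAC-seq libraries came from BAT nuclei, 2 of WT and 2 of Dot1l-BKO mice. Per the submitters' processing notes and the study's methods, bcl2fastq 2.2 and cutadapt 1.2.1 were used, reads were aligned to mm10 with BWA, and MACS2 2.1.1 called peaks, which had to pass q = 0.05 and 2.0-fold enrichment. The list as the authors deposited it holds 1 summit per peak and no value per library, with the −log10 q-value as score (lowest 1.31). Whether reads were shifted for the transposase is not given in the sources used here. Read depth is unknown. The RNA-seq libraries, 2 per genotype, were not analysed here.

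Summits (BED end position) were assigned to the nearest of 24860 NM TSSs of RefSeq GRCm38.p6, the same build as mm10. Ties (3 summits) went to the first gene in order. Windows of 100 bp on each side were read from its genome. Computation used Python 3.11.15 with numpy 2.4.6, scipy 1.17.1 and pandas 2.3.3, and plots matplotlib 3.10.9. Distances, windows and motif matches were tested on simulated data. All results are descriptions with no test, and Wilson intervals cover counting error only. Members, gene lists and motifs were chosen with earlier results of these data known. Genes named were the 10 highest scores, 19 selected from the study's text (Tomm13, Immp21 and Cox7a there were read as Timm13, Immp2l and Cox7a1), the 4 highest of each of 21 lists, and the 2 highest for each of 19 motifs in its fullest 20-bp step. Other members of these lists, and all genes of a list outside the window, were named after their values were seen, and a few that the rule names are not reported here. Alternatives changed the score minimum, the window, the transcripts, close summits, masked bases and divergent TSSs, and GENCODE vM21 transcripts were added after seeing the data.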

Additional observations from a re-analysis of the deposited data

How the results depend on the processing

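No paired analysis was possible because the deposited list has no values per library, and for the same reason no replicate could be left out. The number of core promoter summits (3286) became 1801 with a score of at least 10, 1785 within 50 bp and 5337 within 200 bp, and stayed within 1.5 times under the other 7 alternatives. The share upstream (54.5%) was 57.5% with a score of at least 10, 47.4% within 50 bp, 57.4% with divergent promoters kept and 50.3% with all RefSeq transcripts. The median score (10.9) was 13.4 and 18.8 with a score of at least 5 and 10, as a minimum on the score itself must raise it, 11.5 with divergent promoters kept and 10.4 with all RefSeq transcripts. The share of genes (16.3%) was 13.7% and 8.97% with a score of at least 5 and 10, 8.89% within 50 bp, 26.1% within 200 bp, 17.6% with divergent promoters kept, 10.7% with all RefSeq transcripts, which adds genes, and 16.9% with GENCODE transcripts. The CpG-island-like share (83.3%) was 85.4% and 87.4% with a score of at least 5 and 10, 84.9% within 50 bp, 80.5% within 200 bp and 77.3% with all RefSeq transcripts. Except where the construction shows it, the cause was not tested. Of 57 motif shares under alternatives, 33 lay inside the interval of the reported share, and of the other 24, 18 came from the narrower 50-bp window. The number of the 21 gene lists above the share of all genes was 12, and 10 with a score of at least 10, 13 within 200 bp and 11 with divergent promoters kept. The 12 included the genes selected from the study's text, which overlap other lists. They also included H3K79 methylation and elongation (18.8%), histone deacetylases and DNA methyltransferases (16.7%) and clock genes (23.5%), whose intervals contained 16.3%. Without read counts, a gene with no core promoter summit cannot be told from one whose peak did not pass the cutoff.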
